A study of Mus musculus with 30 samples.

Results

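Ttr, Folr1, Krt8, Krt18 and Clu are 5 genes known from the choroid plexus or from simple epithelia, out of 12394 genes with a probe set of their own on the array. They were selected on their measured signals in these same dishes, so their levels, their differences between groups and their covariation are given as a description. Where a member is counted as past a threshold, the call comes from the fit to all genes and supports nothing about the members. They are read by 12 probe sets, 3 for Ttr, 3 for Krt8, 4 for Clu and 1 each for Folr1 and Krt18. The dishes held primary cell cultures of the mouse telencephalon, which gives rise to cortex and basal ganglia, taken at embryonic day 12.5 and grown at low density on plastic without serum. KO dishes came from 1 pool of 6 embryos genotyped Xbp1 -/-, WT dishes from 1 pool of 4 embryos genotyped Xbp1 +/+, and each pool was divided over 15 dishes. In each genotype 5 dishes were left untreated (basal), 5 received brain-derived neurotrophic factor (BDNF, 100 ng/ml) for 24 h and 5 received it for 48 h. BDNF was added on day 3 in vitro. Basal and 24 h dishes were lysed on day 4 and 48 h dishes on day 5, so 48 h of BDNF and a day more in culture cannot be told apart. With 1 pool per genotype, the genotype and the pool cannot be told apart either, and every spread given below is between dishes of 1 pool.

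The choroid plexus is the folded epithelium of the brain ventricles that secretes cerebrospinal fluid, and it arises from the dorsal midline of the neural tube beside the cortical hem. Its cells make transthyretin (Ttr), a carrier of thyroid hormone and, with retinol-binding protein, of retinol, and folate receptor alpha (Folr1), which moves folate across the epithelium. Keratin 8 (Krt8) and keratin 18 (Krt18) pair with each other to build the intermediate filaments of simple epithelia. Clusterin (Clu) is a secreted chaperone made by the choroid plexus and also by astrocytes. Xbp1, the gene deleted in the KO embryos, encodes a transcription factor that acts in the unfolded protein response. A dish is measured as a whole, so fewer cells of a type and less RNA per cell cannot be told apart.

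Krt8 and Krt18 lie on chromosome 15 in the RefSeq annotation of GRCm38.p6, with 23.9 kb between the annotated genes. RefSeq promoter sequences were found for 2 of the 5 genes, these partner keratins, and are shown so that the pair can be read side by side. Each is given 5′ to 3′ with 250 bases before and 50 bases after the annotated start, at chr15:102004293-102004592 on the minus strand for Krt8 and chr15:102027966-102028265 on the plus strand for Krt18. Capitals mark matches, on either strand, to the TATA motif TATAA, the CCAAT box, the GC box GGGCGG, the AP-1 motif TGANTCA and the E-box CACCTG.
Krt8: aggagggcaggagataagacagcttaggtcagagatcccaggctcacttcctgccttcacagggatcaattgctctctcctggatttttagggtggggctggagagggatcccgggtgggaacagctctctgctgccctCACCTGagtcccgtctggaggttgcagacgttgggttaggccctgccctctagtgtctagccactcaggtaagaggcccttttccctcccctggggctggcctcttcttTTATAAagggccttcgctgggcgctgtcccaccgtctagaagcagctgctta
Krt18: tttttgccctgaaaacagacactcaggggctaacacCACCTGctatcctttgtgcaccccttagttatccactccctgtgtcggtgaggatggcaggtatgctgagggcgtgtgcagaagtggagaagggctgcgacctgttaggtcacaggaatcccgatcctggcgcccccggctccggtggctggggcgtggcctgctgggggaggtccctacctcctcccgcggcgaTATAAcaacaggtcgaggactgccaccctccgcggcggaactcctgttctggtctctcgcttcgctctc
Both sequences hold the E-box and the TATA motif, and the other motifs are in neither within this window. In Krt8 the TATAA matches of both strands overlap and begin at bases 249 and 250, and in Krt18 the match begins at base 232. Of 32851 mouse promoters of the same length, 24.9% held TATAA, 20.2% held CACCTG, 37.4% held CCAAT, 35.7% held GGGCGG and 7.81% held TGANTCA. These matches describe the letters only.

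Levels below are log2 of the signal over the median of its array, so that 0 is the level of the median probe set. Signals under 0.1 of the median were set to that floor, which is -3.32 on this scale. Array medians lay between 81.9 and 138 intensity units. The ratio of the 3' to the 5' Gapdh probe sets, which tracks RNA quality and labelling, averaged 2.73 in KO against 2.86 in WT basal dishes, 2.80 against 2.83 at 24 h, and 2.39 against 2.47 at 48 h. Xbp1 itself averaged 2.83, -0.34, 3.99 and 4.65 in KO basal dishes on its 4 probe sets, against 1.74, -0.39, 3.84 and 4.43 in WT basal dishes. Which part of Xbp1 was removed is not given in the labels, so these probe sets do not check the genotype, and KO and WT are used as the labels give them.

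Ttr was read by some of the brightest probe sets of the WT dishes and was far lower in KO dishes, with a wide spread there. On its brightest probe set, 1454608_x_at, the 5 KO basal dishes stood at 4.69, 3.42, 1.42, 2.95 and 5.40, against 7.08, 7.18, 7.14, 7.25 and 7.06 in the WT basal dishes. After 24 h of BDNF the KO dishes stood at 4.06, 4.31, 2.91, 1.59 and 3.29, against 7.26, 7.00, 7.06, 7.17 and 7.19 in WT, and after 48 h at 5.10, 4.26, 3.96, 3.19 and 5.31 against 6.91, 6.99, 6.82, 7.02 and 6.98. No KO dish reached the lowest WT dish at any time. KO over WT, the difference was -3.56 ± 0.46 in basal dishes, -3.90 ± 0.46 at 24 h and -2.58 ± 0.46 at 48 h (log2 ± SE from the fit to all 30 arrays), which is 11.8-fold, 15.0-fold and 5.98-fold lower. In WT basal dishes this probe set ranked at a median of 13 among the 22690 probe sets of an array, against 2530 in KO basal dishes. In WT its highest signal was 81.5% of the highest signal on the same array, and whether the scanner's range limited its WT level was not tested.

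The other probe sets of Ttr, 1451580_a_at and 1455913_x_at, gave larger differences of -4.78 ± 0.40 and -4.20 ± 0.49 in basal dishes, 27.4-fold and 18.4-fold lower in KO. Across the 15 KO dishes Ttr 1454608_x_at spanned 15.7-fold, against 1.36-fold across the 15 WT dishes. Its standard deviation of 1.55 in KO basal dishes was the highest of the 7436 tested genes, whose median was 0.136. The SD was 1.08 after 24 h and 0.86 after 48 h in KO, ranks 4 and 3. In WT basal dishes the SD was 0.07, rank 6298. The KO dishes with high Ttr were high on every probe set of the gene. Deviations from the group mean correlated across the 15 KO dishes with Pearson's r of 0.97 to 0.99 between the 3 probe sets (Spearman's rho 0.95 to 0.99), and of 0.63 to 0.73 across the 15 WT dishes. These probe sets share a transcript and an array, so this measures the consistency of the reading in a dish.

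**Figure D1:**
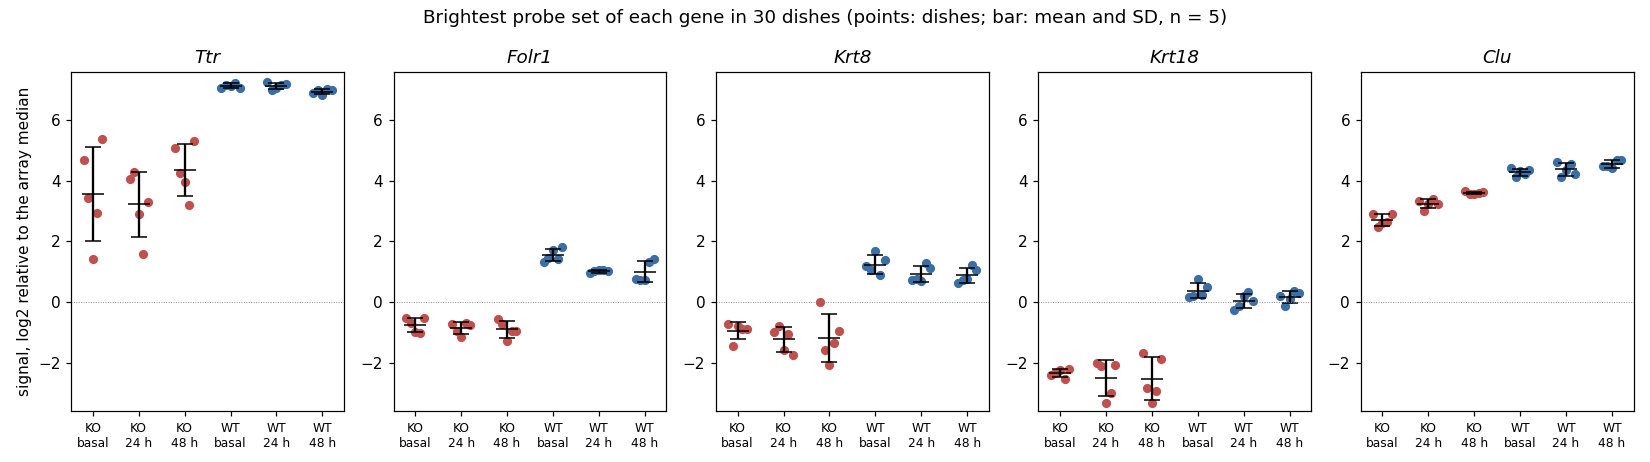
Level of the brightest probe set of each of the 5 genes in the 30 dishes, as log2 of the signal over the array median, with KO groups left of WT groups and basal, 24 h and 48 h of BDNF in order within each. Points are dishes, bars the mean and SD (n = 5); all KO dishes lie below all WT dishes of the same time, and KO dishes are widely spread for Ttr, with an SD of 1.55 in basal dishes.

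Folr1 was above the array median in all WT dishes and below it in all KO dishes. Its only probe set, 1450995_at, stood at -0.53, -0.70, -0.99, -1.01 and -0.53 in KO basal dishes, against 1.33, 1.46, 1.73, 1.42 and 1.81 in WT basal dishes. The KO means were -0.75 ± 0.24, -0.85 ± 0.20 and -0.90 ± 0.27 in basal, 24 h and 48 h dishes, against 1.55 ± 0.21, 1.02 ± 0.05 and 0.99 ± 0.35 in WT (SD, n = 5 each). The groups did not overlap at any of the 3 times. The differences were -2.30 ± 0.15, -1.88 ± 0.15 and -1.90 ± 0.15, or 4.93-fold, 3.67-fold and 3.73-fold lower in KO. With the 48 h arrays of replicates 1 and 2 alone, the 48 h difference was -1.41.

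Krt8 followed the same order. On 1420647_a_at it stood at -0.71, -1.44, -0.79, -0.88 and -0.89 in KO basal dishes, against 1.20, 1.05, 1.67, 0.89 and 1.38 in WT basal dishes, and the difference was -2.18 ± 0.24, 4.54-fold lower. At 24 h and 48 h it was -2.14 ± 0.24 and -2.07 ± 0.24, and with the 48 h arrays of replicates 1 and 2 alone it was -1.47. The groups did not overlap at any time, although 1 KO dish at 48 h stood at -0.00 while the others there lay between -2.06 and -0.94. The other Krt8 probe sets were at the floor in most KO dishes, 1423691_x_at in 12 of 15 and 1435989_x_at in all 15, and in none of the WT dishes. Set against the floor, Krt8 was at least 17.2-fold lower in KO basal dishes on 1435989_x_at and at least 18.0-fold lower on 1423691_x_at, so the size of the difference depends on the probe set.

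Krt18, the partner of Krt8, was above the median in WT basal dishes and far under it in KO dishes. Its probe set 1448169_at stood at -2.41, -2.34, -2.24, -2.55 and -2.22 in KO basal dishes, against 0.16, 0.21, 0.77, 0.24 and 0.50 in WT basal dishes. All KO dishes lay under all WT dishes, with 2 of the 15 KO dishes at the floor. In the fit without a filter on dim genes the differences were -2.73 ± 0.26, -2.54 ± 0.26 and -2.70 ± 0.26 in basal, 24 h and 48 h dishes, 6.62-fold, 5.83-fold and 6.49-fold lower in KO. Krt18 ranked 8226 of the 12394 genes by mean level and was left out of the main fit, which kept the upper 60%. Folr1, at rank 6740, and Krt8, at rank 7035, were close to that limit and passed it with WT levels above and KO levels below the array median.

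Clu was lower in KO than in WT at each time, and its KO dishes were ordered by time. On 1454849_x_at it stood at 2.90, 2.48, 2.60, 2.66 and 2.90 in KO basal dishes, against 4.42, 4.13, 4.33, 4.22 and 4.35 in WT basal dishes. After 24 h it stood at 3.33, 3.01, 3.25, 3.39 and 3.23 in KO against 4.64, 4.13, 4.37, 4.55 and 4.22 in WT, and after 48 h at 3.65, 3.55, 3.58, 3.59 and 3.64 against 4.48, 4.50, 4.42, 4.69 and 4.69. The KO groups at the 3 times did not overlap with each other, and none reached WT. The difference was -1.58 ± 0.09 in basal dishes, -1.14 ± 0.09 at 24 h and -0.95 ± 0.09 at 48 h, or 3.00-fold, 2.20-fold and 1.94-fold lower in KO. The other 3 Clu probe sets gave differences between -1.61 and -1.51 in basal dishes and between -0.92 and -0.84 at 48 h.

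**Figure D2:**
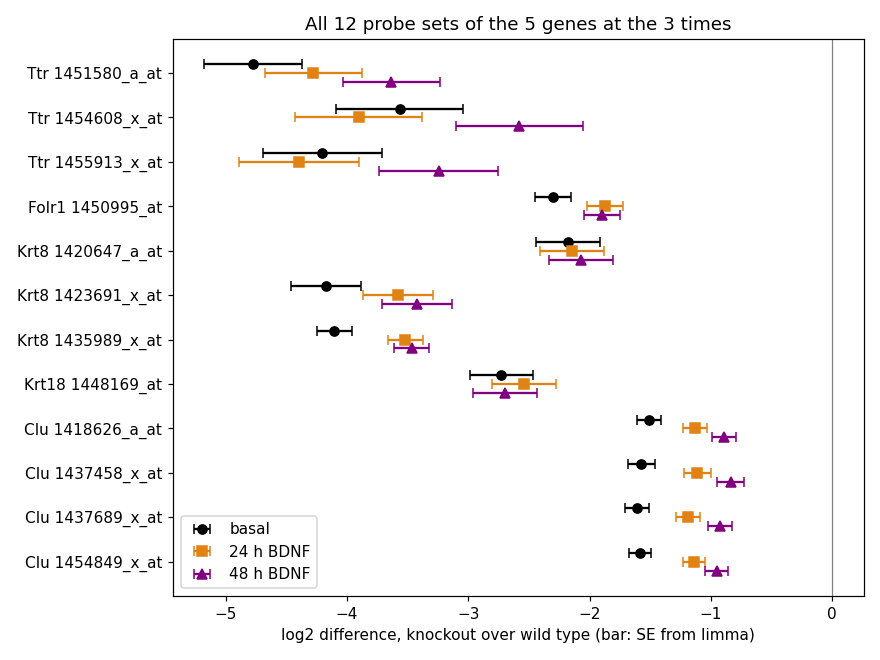
Log2 difference KO over WT on the horizontal axis for all 12 probe sets of the 5 genes, in basal dishes (circles), after 24 h (squares) and 48 h (triangles) of BDNF, with the SE of limma as bars. Every difference is negative, from -4.78 for Ttr 1451580_a_at in basal dishes to -0.84 for Clu 1437458_x_at at 48 h.

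Of the 4 members in the main fit, all 4 were past the threshold (Benjamini-Hochberg adjusted p under 0.05, limma) in KO over WT at each time. Over all 7436 tested genes 27.9% were past it in basal dishes, 26.2% at 24 h and 24.1% at 48 h. Without the filter, 17.5%, 16.8% and 15.3% of the 12394 genes were past it. The members were chosen with these contrasts known, so nothing is read from their count or from the lack of overlap between their KO and WT dishes.

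With time and BDNF, Clu was higher than in basal dishes in KO. In KO dishes it was higher by 0.54 ± 0.09 at 24 h and by 0.90 ± 0.09 at 48 h, and higher at 48 h than at 24 h by 0.36 ± 0.09. In WT dishes the differences on 1454849_x_at were 0.09 ± 0.09 at 24 h, not past the threshold, and 0.27 ± 0.09 at 48 h. The groups overlapped at both times on this probe set. On 1418626_a_at WT dishes at 48 h lay between 3.06 and 3.50, above the basal dishes at 2.64 to 2.88. On 1437689_x_at they lay between 4.09 and 4.48, above 3.77 to 4.05, while on 1437458_x_at the groups overlapped. On 1454849_x_at the 48 h difference in WT was past the threshold in the fit to all arrays. It was not past it under quantile normalization, under 75th percentile scaling or with 48 h replicates 1 and 2 alone. The response of KO minus that of WT was 0.44 ± 0.13 at 24 h and 0.63 ± 0.13 at 48 h. The second of these was past the threshold in the main fit but not without the filter, and 30 of 47 alternatives kept it past.

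Folr1 went the other way in WT, lower by 0.53 at 24 h and by 0.56 at 48 h (log2 differences -0.53 ± 0.15 and -0.56 ± 0.15). In KO, where it was already low, the differences were -0.10 ± 0.15 and -0.15 ± 0.15. WT dishes at 24 h did not overlap WT basal dishes, and at 48 h only replicate 5, at 1.42, lay within the basal range, whose lowest dish was 1.33. Ttr in KO differed by -0.34 ± 0.46 at 24 h and 0.79 ± 0.46 at 48 h, with overlapping dishes. In WT it differed by -0.20 ± 0.46 at 48 h in the fit to all arrays, not past the threshold, and by -0.20 ± 0.05 when only those 10 arrays were fitted; the dishes did not overlap with basal dishes. Krt8 differed by between -0.35 and -0.25 from basal dishes in either genotype, and Krt18 by between -0.34 and -0.16, all with overlap.

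Over the 11 comparisons, 19 of the 44 pairs of a tested member and a comparison were past the threshold. Among all tested genes, 11.5% were past it in KO at 24 h over basal, 28.9% at 48 h over basal and 9.84% at 48 h over 24 h. In WT these shares were 14.4%, 36.2% and 13.9%. For the difference of the responses they were 0.0941% at 24 h and 0.134% at 48 h. Outside the genotype contrasts, Clu and Folr1 were the members past it.

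The members' dish-to-dish deviations from their group means ran together for the keratins. Across the 15 KO dishes Krt8 and Krt18 correlated with r 0.66 (rho 0.58, and r 0.37 without the 2 dishes farthest from the median). Across the 15 WT dishes r was 0.73 (rho 0.55, and 0.54 without those 2). Over all 30 dishes Krt8 was the tested gene closest to Krt18, with r 0.67. Within a genotype other genes were closer to Krt18, led by Cystm1 in KO (r 0.84) and Bgn in WT (r 0.91), and Krt8 was not among the nearest 5. Folr1 followed both keratins in WT, with r 0.68 to each, and less in KO, with r 0.47 to Krt8 and 0.52 to Krt18. Without the 2 farthest dishes r to Krt8 and Krt18 was 0.62 and 0.68 in WT, and 0.21 and 0.19 in KO. Ttr in KO, the gene with the widest spread, correlated with r 0.51 with Krt18, 0.46 with Folr1, 0.29 with Krt8 and 0.27 with Clu. In WT the same values were -0.08, 0.15, 0.14 and 0.41. Without the 2 farthest dishes the values in this order were 0.71, 0.28, 0.44 and -0.03 in KO. In WT they were -0.30, -0.004, -0.008 and 0.09. These are descriptions over dishes that share 1 pool per genotype. The Gapdh 3'/5' ratio moved with some of them, with r 0.83 to Folr1, 0.55 to Krt8, 0.54 to Krt18, 0.49 to Clu and 0.29 to Ttr across KO dishes. Across WT dishes these values were -0.32, 0.08, -0.24, 0.27 and 0.56 in the same order of genes. Its part in the covariation was not tested.

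**Figure D3:**
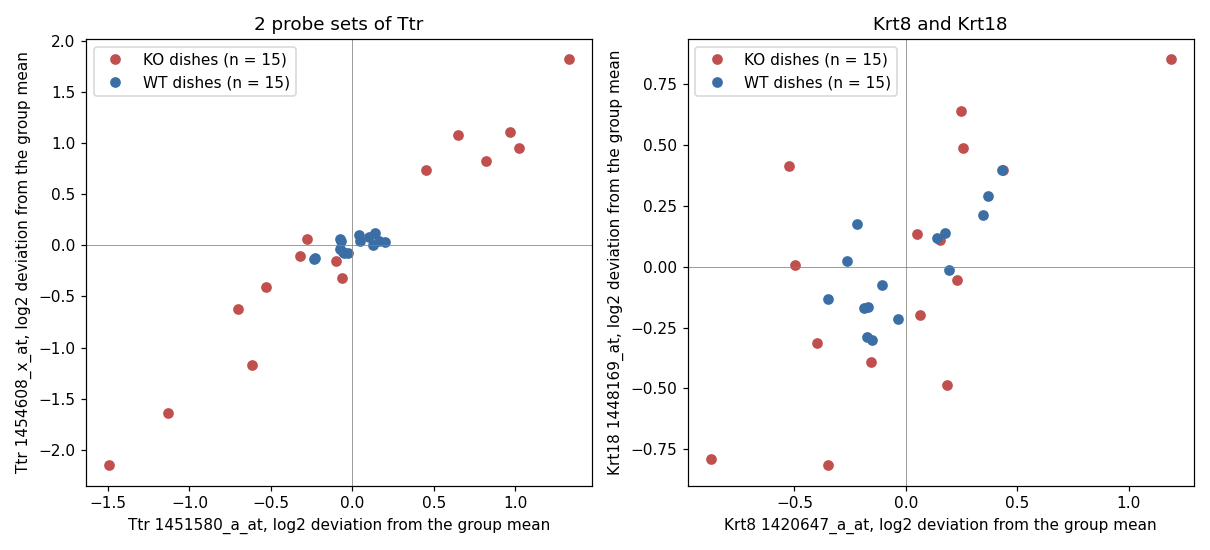
Each point is a dish (KO red, WT blue, 15 each), with deviations from the group mean in log2 units on both axes. Left, probe sets 1451580_a_at and 1454608_x_at of Ttr, which form a line in KO (r 0.97) and a small cloud in WT; right, Krt8 and Krt18, which rise together loosely in both genotypes (r 0.66 in KO and 0.73 in WT).

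The genes whose deviations were nearest to each member over 30 dishes were named by rule. For Ttr they were Oxnad1, Rab3d, Nit1, Vti1a and Ptp4a3 (r 0.58 to 0.65), and for Folr1 Iscu, Hspbp1, Myo5b, Kti12 and Nkiras2 (r 0.59 to 0.65). For Krt8 they were Trmt10a, Elapor1, Lrfn1, Sh3gl2 and Strn4 (r 0.57 to 0.65), and for Krt18, after Krt8 itself, Pam, Trmt10a, Arhgef40 and Myo10 (r 0.54 to 0.55). The neighbours of Ttr, in the order given, had rho 0.49, 0.67, 0.30, 0.35 and 0.43. Without the 2 farthest dishes their r was 0.48, 0.64, 0.29, 0.39 and 0.44. Ttr varied little between WT dishes, so its r over 30 dishes rests mostly on KO dishes. Of the 10 neighbours of Ttr and Folr1, Rab3d, a small GTPase of secretory vesicles, and Myo5b, a motor of apical membrane traffic, differed by -1.21 and -1.37 in KO over WT basal dishes, while the others differed by between -0.30 (Vti1a) and 0.24 (Ptp4a3). For Clu the nearest were Cdipt, Pcolce, Tnfaip1, Grn and Dhx30 (r 0.70 to 0.78). Among 23 other tested choroid plexus and simple epithelium genes, Ecrg4, which encodes a secreted peptide precursor of the choroid plexus, had the highest r with Ttr across KO dishes at 0.71 (rho 0.69, and 0.64 without the 2 farthest dishes) and Perp, a desmosome gene, came next at 0.61. In WT these were 0.07 and 0.05. Across KO dishes the 23 values ran down to -0.45 for Anxa3, with Otx2 at -0.27 and Col8a1 at -0.38. Of all tested genes, Brap was nearest to Ttr in KO dishes with r 0.84, above Ecrg4.

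The label of choroid plexus genes was set against 37 other genes of that tissue on the array. Of these, 16 passed the filter, and in KO over WT basal dishes 5 rose, 5 fell and 6 did not pass the test, with a median difference of -0.08 against -0.09 over all tested genes. Without the filter, 6 of all 37 were higher past the threshold and 13 lower, with a median of -0.23 against -0.07 over all genes. The filter uses the mean over all dishes, so a gene low in KO alone can drop out, and the 16 kept do not stand for the list. Col8a1, a short-chain collagen, rose by 1.41 ± 0.10 (adjusted p = 7.46e-13), Cdkn1c, a cyclin-dependent kinase inhibitor, by 0.99 ± 0.10 (adjusted p = 3.05e-09), and Otx2, a transcription factor of the choroid plexus lineage, by 0.74 ± 0.12 (adjusted p = 9e-06). Igf2, a growth factor that meningeal cells make too, rose by 0.73 ± 0.09. Among those that fell were Ecrg4 at -0.71 ± 0.12 and Ezr, the ezrin of the microvilli, at -0.59 ± 0.09 (limma, adjusted over all tested genes).

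The list also held 21 genes that were too dim for the main fit. Without the filter, 8 of them were lower in KO basal dishes past the threshold and 1 was higher, Slco1a5, beside 17.5% of all genes past it in either direction. Kcne2, a potassium channel subunit of the choroid plexus epithelium, stood between -3.32 and -2.33 in KO basal dishes, against -0.49 to 0.52 in WT basal dishes, a difference of -3.10 ± 0.18 (adjusted p = 9.53e-13). It was at the floor in 9 of the 15 KO dishes and in no WT dish, so this is a lower bound of at least 8.59-fold. Car14, a carbonic anhydrase, differed by -2.98 ± 0.40, Slco1c1, a thyroid hormone transporter, by -2.14 ± 0.22, Cldn2, a claudin of leaky tight junctions, by -1.85 ± 0.34, and F5, coagulation factor V, by -1.43 ± 0.29. KO dishes of these were at the floor in 5, 5, 8 and 9 of 15, and 1 WT dish each of Cldn2 and F5, so the floor limits these sizes. Calml4 differed by -1.69 ± 0.17, Sostdc1, a secreted BMP and Wnt antagonist, by -1.61 ± 0.17 and Car12 by -0.77 ± 0.15. Sostdc1 stood between -1.62 and -0.75 over all 15 KO dishes and between -0.69 and 0.70 over the 15 WT dishes, without overlap. The genes in this paragraph, Ecrg4, Ezr and Perp lie outside the rule for named genes and were named after their values were seen. Past the same threshold, 8 of the 21 were lower and 1 higher at 24 h, and 7 were lower and 2 higher at 48 h.

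**Figure D4:**
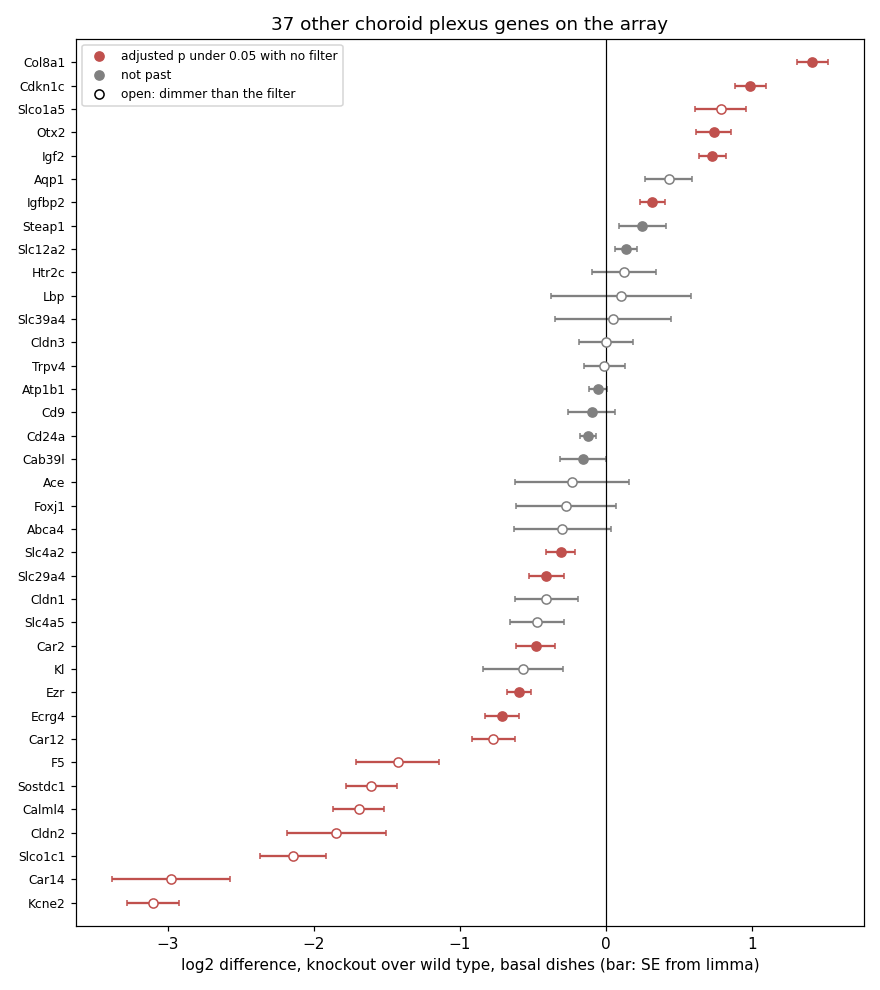
Log2 difference KO over WT in basal dishes for 37 other choroid plexus genes, sorted by difference, with SE bars from the limma fit without a filter; red marks an adjusted p under 0.05 and open circles mark genes dimmer than the filter. The open circles hold the lowest values, down to -3.10 for Kcne2, and filled circles for Col8a1 and Otx2 stand on the positive side.

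Genes of simple epithelia in general gave no uniform difference. Of 8 tested non-members in basal dishes, 4 rose and 2 fell in KO, with a median of -0.00 against -0.09 over all tested genes. Without the filter 5 of 42 were higher and 5 lower. The 5 higher were Cdh1, Anxa3, Anxa1, Perp and Tjp1. The 5 lower were Marveld2 at -0.99 ± 0.26, Ocln at -0.92 ± 0.22, Dsp at -0.71 ± 0.20, Ezr at -0.59 ± 0.09 and Spint2 at -0.41 ± 0.06. Marveld2 and Ocln averaged -3.04 and -2.99 in KO basal dishes, near the floor. Anxa3 and Anxa1, membrane-binding annexins, rose by 1.36 ± 0.10 (adjusted p = 3.29e-13) and 0.98 ± 0.10 (adjusted p = 7.31e-10). Of the defining markers, Cldn7 was at the floor in 15 of 15 KO and 14 of 15 WT dishes, and Esrp1 in all of both. Epcam, an adhesion molecule of epithelia, averaged -2.59, -0.62 and -0.79 in KO basal, 24 h and 48 h dishes, against -2.89, -0.66 and -1.01 in WT, higher with BDNF than in basal dishes in both genotypes. The epithelial transcription factors Grhl2 and Elf3 averaged -1.13 and -0.54 in KO basal dishes, against -0.76 and -0.18 in WT basal dishes. For both genes the KO and WT basal dishes overlapped, and neither difference was past the threshold without the filter. These markers were chosen for mention after their values were seen.

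Other lists show what else differed between the pools. All 17 tested meningeal genes passed the test in basal dishes, 16 higher and 1, Ptgds, lower in KO, with a median of 0.96. Foxd1 rose by 2.05 ± 0.15 and Lum, the proteoglycan lumican, by 1.99 ± 0.15 (adjusted p = 9.92e-13 and 2.71e-12). The summed signal of the 23 meningeal genes lay between 341 and 402.6 array medians in KO basal dishes, against 175.4 to 211.9 in WT basal dishes. Of 14 tested genes of the dorsal midline and cortical hem, where the choroid plexus forms, 10 rose and none fell in KO basal dishes, among them Id3 by 1.42 ± 0.12, Bmp4 by 1.08 ± 0.14 and Msx2 by 1.06 ± 0.16. Without the filter, 10 of 23 were higher and 2 lower, Trp73 at -1.63 ± 0.36 and Bmp6 at -1.01 ± 0.22. For neurons, 2 of 13 tested genes fell, Elavl3 and Dcx, and the summed signal lay between 358.2 and 394.8 in KO against 377.1 to 423.9 in WT basal dishes. Whether any of these had a part in the members' differences was not tested.

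**Figure D5:**
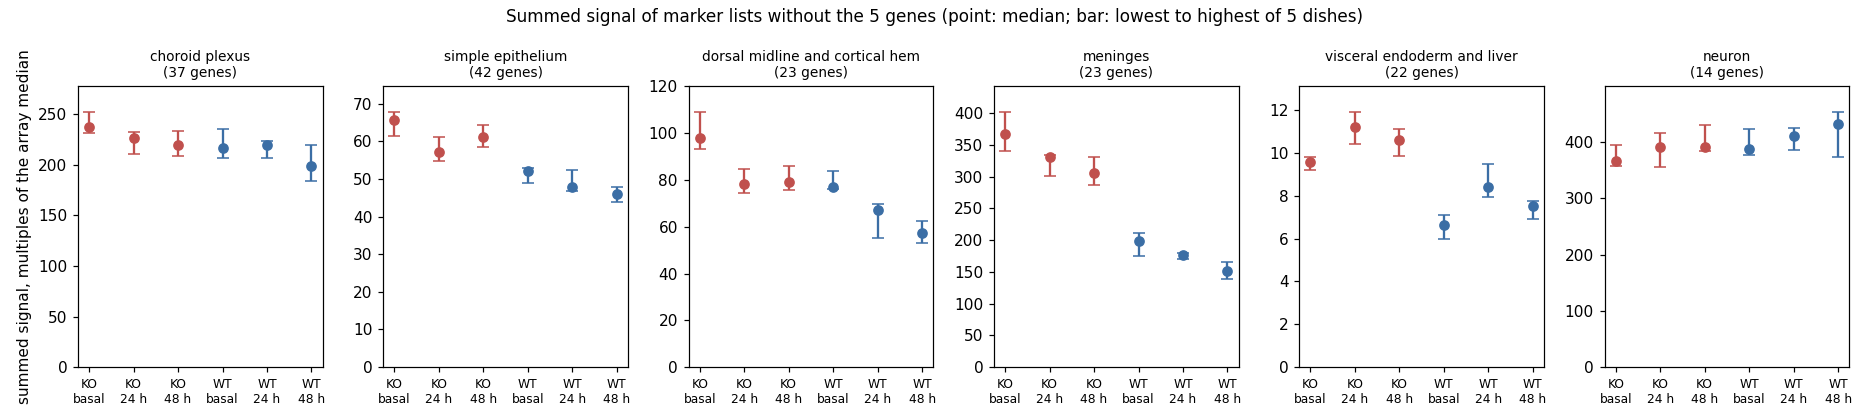
Summed signal of 6 marker lists, members excluded, in multiples of the array median, with KO groups left of WT groups; points are medians and bars run from the lowest to the highest of 5 dishes. Meningeal genes in KO basal dishes, at 341 to 402.6, lie above WT basal dishes at 175.4 to 211.9, while neuronal sums overlap. Simple epithelium sums without the members are also higher in KO basal dishes, at 61.52 to 67.91 against 49.01 to 52.89 in WT. Choroid plexus sums overlap, at 231.4 to 252.6 in KO and 206.8 to 235.2 in WT basal dishes. Sums weigh bright genes most.

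The functional partners of the members did not share one direction in KO over WT basal dishes. Of 10 other tested genes of folate transport and the folate cycle, 1 rose and 3 fell, with a median of -0.10 against -0.09 over all tested genes. Aldh1l1, a folate enzyme of astrocytes, fell by 0.61 (difference -0.61 ± 0.15, limma, adjusted p = 0.00261), and Mthfd2, a mitochondrial enzyme of the cycle, rose by 0.49 ± 0.09. Of 5 other tested genes of thyroid hormone and retinol carriage, 1 rose and 3 fell, with a median of -0.30. The largest difference among these was that of Rbp4, at -0.71. Without the filter, 1 of 14 was higher and 4 were lower, among them Slco1c1 at -2.14 ± 0.22. The median of the 14 was -0.29, against -0.07 over all genes. Crabp2, which binds retinoic acid in the cell, rose by 0.68 ± 0.15 (limma, adjusted p = 0.000656), and Thra, a thyroid hormone receptor, had a difference of -0.30 ± 0.05. Of 11 other tested intermediate filament and keratin partner genes, 4 rose and 2 fell, with a median of 0.08. Plec, the linker plectin, rose by 1.05 ± 0.10, and Lmna, which encodes the A-type lamins, by 0.82 ± 0.08 (limma, adjusted p = 1.91e-10 and 9.95e-10). Of 9 other tested extracellular chaperone and apolipoprotein genes, 5 rose and 1 fell, with a median of 0.29. Apod, an apolipoprotein of glia and fibroblasts, rose by 0.90 ± 0.12 and Sparc, a secreted collagen-binding protein, by 0.79 ± 0.08. Astrocytes and radial glia also make Clu, and of 15 tested genes of that list 3 rose and 6 fell, with a median of -0.30. Aldoc, a glycolytic enzyme of astrocytes, had a difference of -1.05 ± 0.11 (limma, adjusted p = 4.84e-09), while Gja1, the gap junction protein connexin 43, rose by 0.76 ± 0.09.

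Ttr is also made by visceral endoderm and liver. Of 22 other genes of those tissues on the array, 2 were tested: Dab2, an endocytic adaptor, rose by 1.06 ± 0.11, and Rbp4, the retinol-binding partner of Ttr, fell by 0.71 (difference -0.71 ± 0.13, adjusted p = 8.25e-05) in KO basal dishes. Alb and Apoa1 had medians of -2.49 and -3.32 in KO dishes, against -1.96 and -3.32 in WT dishes, at or near the floor. Afp averaged -2.961, -2.563 and -2.659 in KO basal, 24 h and 48 h dishes, against -3.201, -1.565 and -1.612 in WT. Without the filter, its KO over WT difference was 0.2397 in basal dishes, not past the threshold. At 24 h it was -0.9989 and at 48 h -1.047, both past the threshold, with overlap at 24 h but not at 48 h. Of the 22 genes, 2 were higher and 1 lower at 24 h, and 2 were higher and 2 lower at 48 h. The cilia gene Foxj1 had a median of -2.07 in KO and -1.76 in WT dishes.

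The other choroid plexus genes also differed with time in culture and BDNF. Of the 16 tested, 2 rose and 8 fell at 48 h over basal in WT, and 2 rose and 5 fell in KO, with medians of -0.22 and -0.08 against 0.02 and 0.04 over all tested genes. Car2, a carbonic anhydrase, rose by 0.88 ± 0.14 in WT and 0.78 ± 0.14 in KO, while Col8a1 fell by 0.52 in WT and by 0.45 in KO. Of the 14 dorsal midline genes, 11 fell in WT and 5 in KO. Msx2 fell by 1.28 and Id3 by 1.08 in WT at 48 h (limma, adjusted p = 2.39e-07 and 1.04e-08). The 48 h arrays also had the lower Gapdh ratio given above, and its part was not tested.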

How the data were processed

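RNA of 30 dishes, 5 in each of 6 groups, was hybridised to Affymetrix Mouse Genome 430A 2.0 arrays after two-cycle labelling. The deposited values are signal intensity on a linear scale, computed by the authors with MAS5, per the submitters' processing notes. Its version and the array detection calls are not given in the sources used here. Each array was divided by its median, floored at 0.1 and taken to log2. Of 22690 probe sets, 20393 carried 1 gene symbol, 691 several and 1606 none in the platform annotation; only the first were used, and the brightest stood for each of 12394 genes. The upper 60% by mean level, 7436 genes, were fitted with limma 3.58.1 in R 4.3.3 with 1 mean per group and an intensity trend. Tests were two-sided, adjusted within each of 11 comparisons by Benjamini-Hochberg at 0.05, and the procedure was tested on simulated data. Replicates are dishes of 1 pool, so p-values measure the spread between dishes. Same-numbered dishes of different groups correlated between -0.175 and 0.281, and for no pair of groups were all 5 over 0.1 (4 of 5 for KO and WT at 48 h, mean 0.136 against -0.0332 for other numbers), so numbers were not taken as pairs.

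The members and lists were chosen with earlier results of these data known. Named genes are the 5 members, up to 4 tested genes past the threshold with the largest change per list, and the 5 genes nearest to each member in deviation from group means; others are marked. Figures were drawn with matplotlib 3.10.9. Alternatives changed the scaling, floor, filter, probe set rule, arrays fitted, replicate block, trend, array weights, Gapdh covariate, 48 h arrays and threshold, and left out each array in turn.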

Additional observations from a re-analysis of the deposited data

Results flagged for a closer look

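Chance marks a dish as far from the others in about 1 in 20 groups, a rate that does not hold where dishes sit at the floor. Among 72 groups of 5 dishes, 4 held a dish far from the others. These were Krt8 1420647_a_at in KO basal replicate 2 at -1.439, with the nearest dish at -0.8917, and Krt8 1423691_x_at in KO 24 h replicate 1 at -2.167, with the other 4 at the floor. Clu 1437458_x_at stood at 4.391 in WT basal replicate 1, nearest dish 3.979, and Ttr 1455913_x_at at 6.761 in WT 24 h replicate 1, nearest dish 6.416. The wide spread of Ttr in KO is over all dishes and gave no such mark.

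The change of Clu from basal to 48 h dishes was larger in KO than in WT by 0.6309 on the log2 scale. It was past the threshold in the main fit but not without the filter. The 48 h dishes also had a day more in culture, which cannot be told apart from BDNF. The genotypes are 1 pool each, and Clu was chosen with its values known.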

How the results depend on the processing

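All 5 members kept the direction of KO over WT at the 3 times under every alternative in which they were recomputed, which describes genes chosen for these values. Krt18 was recomputed without the filter. Of 2376 recomputed member values, 2346 moved by less than the spread between dishes, 30 moved by more and 0 reversed. With 1 value for the gene, Ttr in KO over WT basal dishes ranged from -4.18 with the mean of its probe sets to -3.03 without KO basal replicate 3. Read alone, its less bright probe sets gave larger differences, stated above. The count of member and comparison pairs past the threshold was 19, and 11 with the upper 40% of genes, where fewer members were tested; leaving out 1 array gave 18 to 20, and the replicate block gave 19. The count of pairs for 23 other choroid plexus and simple epithelium genes over the 11 comparisons was 88 in the main fit. It was 140 with no filter and 137 with every probe set on its own, where more genes were tested. Leaving out 1 array gave 81 to 90, and the replicate block 90. The shares of all tested genes past the threshold are given above for each comparison, and nothing is read from these counts. With stricter calls (adjusted p under 0.01) these counts were 15 and 62. The higher level of Clu in WT at 48 h lost its call under quantile normalization (0.17), 75th percentile scaling, with 48 h replicates 1 and 2 alone or a term for the others, and without WT basal replicate 2 or WT 48 h replicate 4 or 5. The Clu response difference ranged from 0.57 to 0.70 and kept its call in 30 of 47 alternatives; among the single arrays it was lost without KO basal replicate 2, 3 or 4, KO 48 h replicate 1, 2, 4 or 5, WT basal replicate 1, 3 or 5, or WT 48 h replicate 3. Values as deposited raised the median of all genes at 48 h over basal by 0.29 in KO and 0.34 in WT. The number of arrays limits the precision, and levels at the floor have no order.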

Other observations

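Foxa2, a transcription factor of the floor plate and of endoderm, was among the dim genes and was seen after its values: it lay between -0.17 and 0.43 over the 15 KO dishes and between -2.69 and -1.05 over the 15 WT dishes, a difference of 2.29 in basal dishes without the filter. Cdh1, the epithelial cadherin, lay between -2.31 and -1.20 in KO dishes and was at the floor in 9 of 15 WT dishes, the opposite order to Krt8 and Krt18.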
